A study of Mus musculus with 4 samples.

Results

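Invariant natural killer T (iNKT) cells were set against CD44hi CD4+ T cells when both came from Ezh2fl/fl CD4-Cre mice (KO), to see which differences between the cell types remained in this genotype. A gene entered the comparison when its FPKM (a fragment count divided by transcript length and library size) was at least 5 in KO iNKT or in KO CD44hi, and 8750 of 22485 gene symbols did. At the edge of that rule, Eri2 entered with a higher value of 5.003 FPKM and Grasp stayed out with 4.999 FPKM. Just inside the rule, 486 symbols had a higher value between 5 and 6 FPKM, and just outside it 515 had one between 4 and 5 FPKM.

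The study sequenced RNA from 4 libraries of sorted mouse spleen cells, 1 per group. The groups were KO iNKT, KO CD44hi and the same cell types from wild-type mice (WT iNKT and WT CD44hi). All mice had the C57BL/6 background; age, the number of animals behind each library and any pooling are not given in the sources used here. In the KO mice both Ezh2 alleles carry lox sites and Cre is driven by Cd4 regulatory sequences. That driver is active from a thymic stage that iNKT and conventional T cells share, so the conventional CD8 lineage and both sorted populations are exposed to Cre. Both populations were sorted on the T cell receptor beta chain, iNKT cells together with PBS-57-loaded CD1d tetramers and CD44hi cells together with CD44 and CD4. The labels leave unsaid if the CD44hi gate removed cells that bind the tetramer, and the CD44hi population can hold memory, regulatory, follicular helper and other effector cells. Every group is 1 library, so no difference could be checked against replicates and values are given without a test, a standard error or a p-value. When 2 values are given for a pair, the iNKT library comes first and the CD44hi library second.

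iNKT cells are T cells with a nearly fixed T cell receptor that recognises lipids on CD1d, and the transcription factor PLZF, encoded by Zbtb16, gives them their innate-like program. They carry NK cell receptors and are known for releasing IL-4 and interferon gamma quickly after stimulation. CD44hi CD4+ T cells are the antigen-experienced part of the CD4 compartment. Ezh2 is the main methyltransferase of PRC2, the Polycomb complex that lays down H3K27me3 on silent genes, and Ezh1 is its less active relative.

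KO CD44hi was the deeper of the compared libraries. The steps between low FPKM values gave an estimated 5133220 fragments for KO iNKT and 23241356 for KO CD44hi, a ratio of 4.53. In a transcript of 2 kilobases 1 fragment was worth 0.0974 FPKM on the KO iNKT side and 0.0215 FPKM on the other. The WT iNKT library had 4720463 and WT CD44hi 17494859, so depth differed with the cell type and the parts of the cell type and of a shared preparation cannot be told apart. Ratios below carry a 95% exact (Clopper-Pearson) interval from these fragments, which covers counting error only. Fewer cells of a type and less RNA per cell cannot be told apart in such bulk libraries.

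Defining T cell markers were present on both sides. Cd3e, a signalling chain of the T cell receptor complex, was at 307 FPKM in KO iNKT and 329 FPKM in KO CD44hi. Cd44, the sorting marker of the CD4 cells, was at 56.3 and 53.1 FPKM. Cd4 was at 101 and 252 FPKM, and Cd8a was at 0.0206 and 3.27 FPKM. The whole-gene value of Ezh2 was 16.8 FPKM in KO iNKT and 18.5 in KO CD44hi, beside 15.3 and 28.9 FPKM in the WT pair. A value summed over the gene does not show whether the floxed part was lost, so it does not check the genotype. Xist, expressed from the inactive X chromosome of females, was at 76.8 FPKM in KO iNKT and 80.0 FPKM in KO CD44hi. In the WT pair it was at 55.3 and 46.8 FPKM. Eif2s3y, a Y-linked gene, was listed at 0 in the KO and WT iNKT libraries and in KO CD44hi, but stood at 22.7 FPKM in WT CD44hi. WT CD44hi thus held both Xist and Y-linked RNA, which touches the WT values given beside the KO ones.

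Of the 8750 genes, 245 were at least 2-fold higher in KO iNKT (2.80%) and 576 at least 2-fold lower (6.58%), on the log2(FPKM + 1) scale used for every difference below. Together that is 821 genes or 9.38%. The median difference was -0.0016, against which the medians of gene lists below can be read. The genes lower in KO iNKT thus outnumbered the higher ones, but the excess lay in genes below 5 FPKM in KO iNKT. Among the 8058 genes at 5 FPKM or more in KO iNKT itself, 245 were higher (3.04%) and 176 lower (2.18%), together 5.22%. This restriction, chosen after the data were seen, can remove lower genes only, since every gene at 5 FPKM in 1 library and 2-fold higher in KO iNKT reaches 5 FPKM there. For the gene lists below, counts and medians of the WT pair cover the genes that entered the KO comparison. List genes at 5 FPKM or more in the WT pair alone are left out of them.

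**Figure D1:**
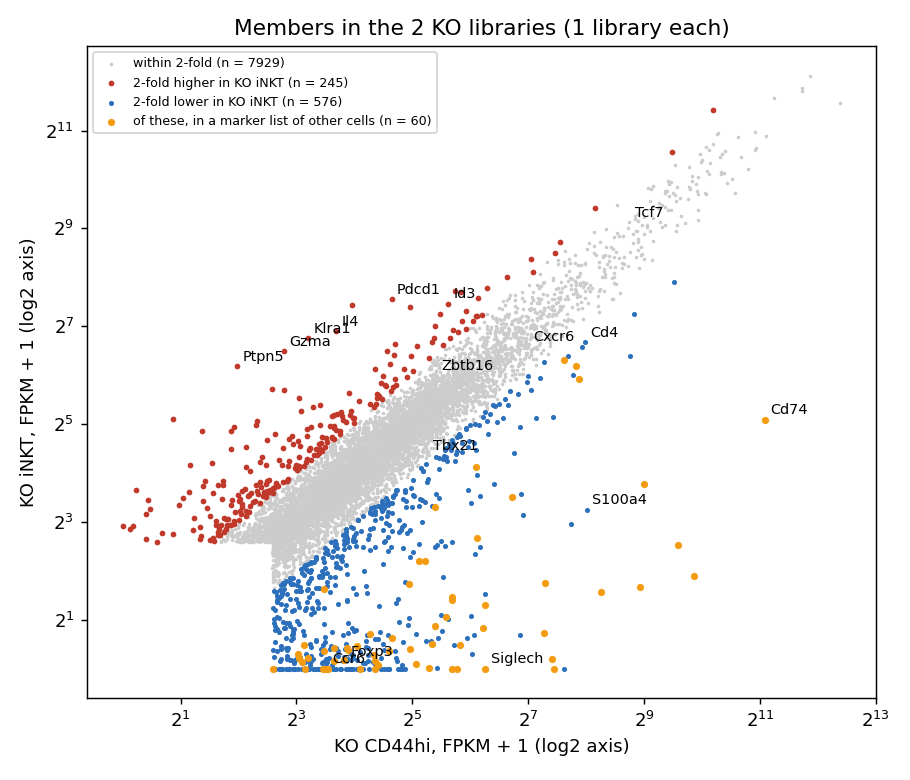
Each of the 8750 genes is a point, with FPKM + 1 in KO CD44hi on the horizontal and in KO iNKT on the vertical axis, both on log2 scales. Red points (245) were at least 2-fold higher and blue points (576) at least 2-fold lower in KO iNKT, and the orange points are the 60 lower genes that stand in marker lists of other cell types.

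The genes farthest below in KO iNKT were markers of cells other than T cells. H2-Ab1, a chain of MHC class II, which antigen-presenting cells use to show peptides to CD4 T cells, was at 2.72 FPKM in KO iNKT and 934 FPKM in KO CD44hi. Siglech, a receptor typical of plasmacytoid dendritic cells, was listed at 0 against 75.7 FPKM, and Ly6d, a marker of early B cells and plasmacytoid dendritic cells, at 0 against 174 FPKM. Tyrobp, a signalling adaptor of myeloid and NK cells, was at 1.98 against 305 FPKM. These markers sat in KO CD44hi and were at or near 0 in KO iNKT.

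Most of the longer lists of such markers showed the same side. Of 10 MHC class II genes, all measured, 9 were lower in KO iNKT, with a summed level of 128 FPKM against 4722 FPKM in KO CD44hi, and 50.4 and 3035 FPKM in the WT iNKT and WT CD44hi libraries. Of 19 B cell markers 12 entered and all 12 were lower, with sums of 5.82 and 381 FPKM, and the defining marker Ms4a1 stood at 0.0967 FPKM in KO iNKT. Of 15 plasmacytoid dendritic cell markers 12 were lower (349 against 859 FPKM). In the WT pair 9 of them were lower and 2, Ccr9 and Ly6c2, higher in iNKT, and the sums, 527 and 273 FPKM, went the other way. Of 12 conventional dendritic cell markers 8 of the 10 that entered were lower (74.1 against 434 FPKM). Of 20 monocyte, macrophage and granulocyte markers 9 of the 10 that entered were lower (101 against 589.9 FPKM). All 6 red cell and platelet markers that entered were lower (19 against 747 FPKM). Of 5 NK cell and ILC1 markers that entered 3 were lower and 1, Gzma, was higher. In the short lists 1 of 1 CD8 T cell and 1 of 3 plasma cell markers were lower. Of 2 stromal and endothelial and 2 gamma delta T cell markers 0 were called. Haemoglobin genes took 0.00654% of all FPKM in KO iNKT and 0.244% in KO CD44hi. A marker that entered only through its level in KO CD44hi had to be lower in KO iNKT, so these counts describe the libraries. The part of such cells in any gene lower in KO iNKT was not tested. Leaving out every gene of these lists left 516 lower genes. The lists are partial, and Ctsh, Pld4 and Ly86, among the 15 smallest differences, are in none of them. The 516 genes are therefore not shown to come from T cells.

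To see what remained of the WT differences, the WT pair was set beside the KO pair over the 9020 genes that reached 5 FPKM in at least 1 of the 4 libraries. These pairs share no library. By the rule of the KO comparison applied to the WT pair alone, 8585 genes entered, with 320 higher (3.73%) and 694 lower (8.08%), together 11.8%. Over the 9020 genes the WT pair had 331 higher (3.67%) and 784 lower (8.69%), together 12.4%. The KO pair had 249 (2.76%) and 612 (6.78%), together 9.55%. Of the genes higher in WT iNKT, 60 were also higher in KO iNKT, which is 18.1% of the WT list and 24.1% of the KO list. Of the lower genes 431 were shared, 55.0% of the WT list and 70.4% of the KO list. The larger kept share on the lower side came mainly from genes at the floor of iNKT cells, since 335 of the 431 were below 5 FPKM in both iNKT libraries. A restriction to the 8382 genes that reached 5 FPKM in WT or KO iNKT left 247 higher (2.95%) and 242 lower genes (2.89%) in the KO pair, together 5.83%. In the WT pair it left 331 (3.95%) and 358 (4.27%), together 8.22%. Such a level in iNKT cells takes out genes mainly on the lower side by construction. Shared were then 60 higher and 96 lower genes, the latter 26.8% of the WT list and 39.7% of the KO list.

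**Figure D2:**
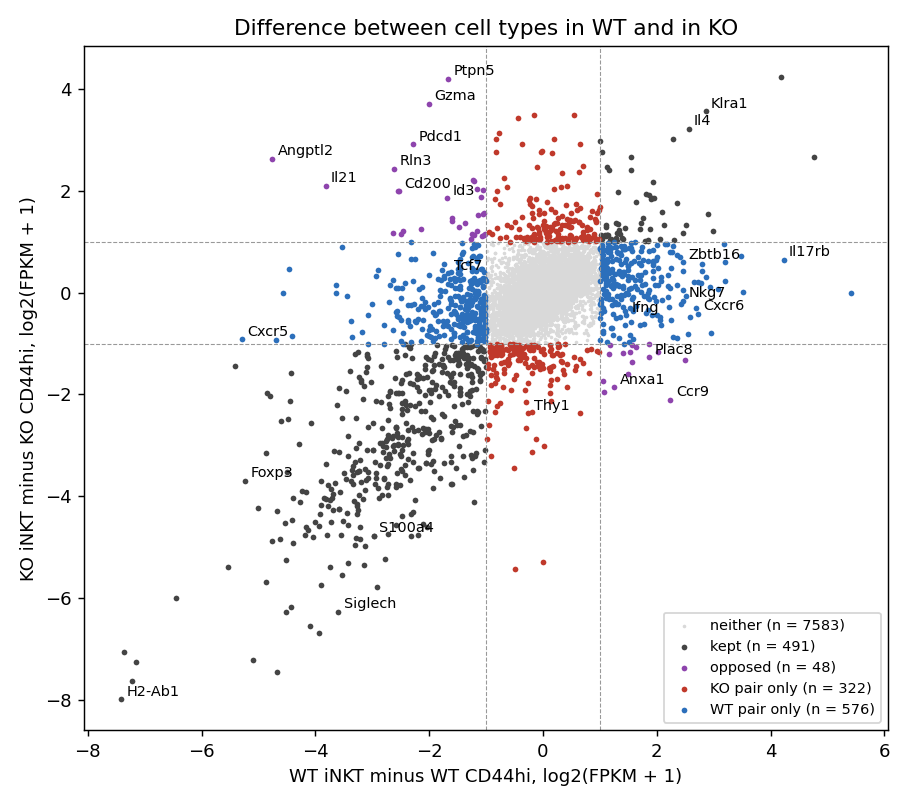
Each point is 1 of the 9020 genes, with the WT difference (iNKT minus CD44hi) on the horizontal and the KO difference on the vertical axis, in log2(FPKM + 1), and dashed lines at 2-fold. Dark points were kept in the same direction (491 genes), purple ones had opposite directions (48), red ones differed in the KO pair only (322) and blue ones in the WT pair only (576).

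The differences of the WT pair that were not 2-fold in the KO pair were 255 on the higher and 321 on the lower side. Of the 255, 98 were at least 2-fold lower in KO iNKT than in WT iNKT, 46 were at least 2-fold higher in KO CD44hi than in WT CD44hi, and 123 moved 2-fold in neither cell type. Of the 321, 135 were at least 2-fold higher in KO iNKT than in WT iNKT and 37 at least 2-fold lower in KO CD44hi than in WT CD44hi. Another 164 of the 321 moved 2-fold in neither cell type. The KO pair in turn had 157 higher and 165 lower genes that the WT pair did not reach. Of the 157, 100 were at least 2-fold higher in KO than in WT iNKT and 56 moved 2-fold in neither cell type. The classes and these shifts rest on the same values, so the directions of the shifts are partly set by the classes. The share of such shifts over all 9020 genes was not counted. Opposite 2-fold directions were found for 48 genes (0.532% of the 9020), of which 32 were higher in KO iNKT and lower in WT iNKT, each against its CD44hi partner.

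**Figure D3:**
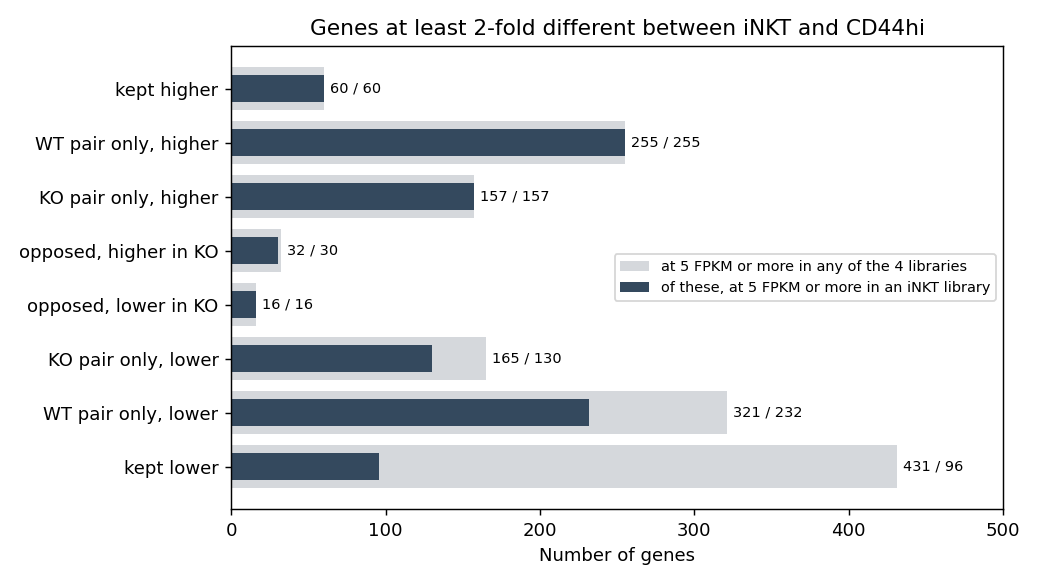
Bars give the number of genes in each class of the comparison between the WT and the KO pair, with light bars for all 9020 genes and dark bars for those that reached 5 FPKM in WT or KO iNKT. The kept lower class has 431 genes, 96 of them at this level in iNKT cells; the kept higher class has 60 in both by construction, since a gene higher in iNKT cells in both pairs reaches that level there.

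Il4, Pdcd1 and Gzma illustrate a difference that was kept from WT and a difference that changed sides. The largest class of genes higher in KO iNKT, 157 genes, was 2-fold higher in the KO pair alone. Il4 encodes the signature type 2 cytokine that iNKT cells make, and its side was kept from WT. Pdcd1 encodes the inhibitory receptor PD-1 and Gzma the granule protease granzyme A, and both changed sides between WT and KO. The 250 bases before their start sites are shown because these genes give 1 example of a kept and 2 of an exchanged difference. They come from RefSeq, build GRCm38.p6, minus strand, at chr11:53618666-53618915 (Il4), chr1:94052554-94052803 (Pdcd1) and chr13:113100982-113101231 (Gzma).
Il4: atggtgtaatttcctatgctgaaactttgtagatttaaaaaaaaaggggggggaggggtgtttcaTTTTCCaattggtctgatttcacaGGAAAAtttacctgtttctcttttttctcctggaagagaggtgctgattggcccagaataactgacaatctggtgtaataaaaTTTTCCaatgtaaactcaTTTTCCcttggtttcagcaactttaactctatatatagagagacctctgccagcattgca
Pdcd1: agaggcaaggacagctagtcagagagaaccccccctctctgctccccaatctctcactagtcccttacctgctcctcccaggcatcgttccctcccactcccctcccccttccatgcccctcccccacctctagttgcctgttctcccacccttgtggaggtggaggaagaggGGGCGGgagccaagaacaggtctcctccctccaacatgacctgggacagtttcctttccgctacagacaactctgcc
Gzma: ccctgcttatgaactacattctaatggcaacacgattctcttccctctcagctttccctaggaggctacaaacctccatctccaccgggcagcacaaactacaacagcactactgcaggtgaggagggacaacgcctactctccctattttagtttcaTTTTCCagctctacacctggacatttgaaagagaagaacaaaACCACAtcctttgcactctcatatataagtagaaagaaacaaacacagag
Capitals mark matches to the motifs searched on both strands: GGAAAA for NFAT, TGANTCA for AP-1, GGTGTGA for T-box factors, CTTTGA for TCF/LEF, TGTGGT for RUNX, and GGGCGG for the GC box. Il4 held 4 NFAT matches, Gzma 1 NFAT and 1 RUNX match, and Pdcd1 1 GC box. Over all 32851 promoter windows, 20.4% held the NFAT letters, 14.0% the RUNX letters, 32.7% the GC box, 13.8% the TCF/LEF letters, 6.7% the AP-1 letters and 3.3% the T-box letters. A match is a string of letters and not a measured binding site.

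Il4 lies on chromosome 11 at 53602982 to 53618669 (GRCm38) and was at 118 FPKM in KO iNKT and 11.9 in KO CD44hi, beside 52.3 and 8.03 FPKM in the WT pair. Both iNKT libraries were above both CD44hi libraries, and KO iNKT was the highest. The ratio of KO iNKT over KO CD44hi was 9.94 (8.21 to 12.1), beside 6.52 in the WT pair. Pdcd1, on chromosome 1 at 94038305 to 94052553, was at 187 and 24.0 FPKM in the KO pair and 10.2 and 53.6 FPKM in the WT pair. WT iNKT was thus the lowest and KO iNKT the highest, and the KO ratio was 7.79 (7.23 to 8.41). Gzma, on chromosome 13 at 113093825 to 113100981, was at 89.0 and 5.92 FPKM in the KO pair and 1.72 and 9.97 FPKM in the WT pair, again with the iNKT libraries at both ends, and its KO ratio was 15 (12.3 to 18.4).

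The largest difference in favour of KO iNKT belonged to Ptpn5, a tyrosine phosphatase best known from neurons. It stood at 71.4 FPKM in KO iNKT and 2.95 in KO CD44hi, beside 0.892 and 5.03 FPKM in the WT pair, a KO difference of 4.20 and a KO ratio of 24.2 (18.1 to 33.4). Vdr, the vitamin D receptor, was at 28.0 and 1.60 FPKM in the KO pair and 1.77 and 2.09 FPKM in the WT pair, so 1 library of the 4 was high and the others lay close together. Nrgn, which encodes the calmodulin-binding protein neurogranin, was at 172 FPKM in KO iNKT and 14.5 FPKM in KO CD44hi, with 6.75 and 4.34 FPKM in WT iNKT and WT CD44hi. Fgf18, a fibroblast growth factor, was listed at 0 in WT iNKT and stood at 11.6 FPKM in KO iNKT, against 0.357 and 0.179 FPKM in WT and KO CD44hi. Prg4, a secreted proteoglycan, and Igfbp4, a binding protein of insulin-like growth factors, had KO differences of 3.14 and 2.92. The WT differences of Vdr, Nrgn, Fgf18, Prg4 and Igfbp4 lay between -0.77 and 0.54, so none of these 5 separated the WT cell types by 2-fold.

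The iNKT lineage genes were the list in which a lineage difference would be looked for first. Of 16, all measured, 3 were higher in KO iNKT and 1 was lower, against 7 higher and 4 lower in the WT pair. The median difference of the list was 0.74 in KO and 0.88 in WT. Zbtb16, on chromosome 9 at 48654297 to 48836222, was at 63.1 FPKM in KO iNKT and 41.4 in KO CD44hi, beside 28.2 and 4.30 FPKM in the WT pair. KO CD44hi thus exceeded WT iNKT for this gene, and the KO ratio was 1.52 (1.43 to 1.62) beside 6.56 in WT. Il17rb, the receptor for IL-25 found on IL-4-producing and IL-17-producing iNKT subsets, was at 126 and 80.9 FPKM in the KO pair and 159.9 and 7.55 FPKM in the WT pair, and its ratio went from 21.2 in WT to 1.56 (1.47 to 1.66) in KO. In both genes KO CD44hi lay far above WT CD44hi.

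For Cxcr6, Il2rb and Id2, KO iNKT lay far below WT iNKT. Cxcr6, a chemokine receptor that holds iNKT cells in liver, was at 468 FPKM in WT iNKT and 94.6 in KO iNKT, against 69.6 and 127 in WT and KO CD44hi, and its KO ratio was 0.747 (0.696 to 0.801). Il2rb, the receptor chain shared by IL-2 and IL-15, was at 198 and 102 FPKM in the KO pair and 814 and 178 FPKM in the WT pair, with a KO ratio of 1.94 (1.86 to 2.02). Id2, an inhibitor of E proteins, was at 441 and 475 FPKM in the KO pair and 1172 and 327 FPKM in the WT pair. Klrb1c, which encodes NK1.1, was at 96.2 and 58.5 FPKM in the KO pair and 177 and 14.9 FPKM in the WT pair, lower in KO iNKT and higher in KO CD44hi than in WT. The members higher in KO iNKT were Icos, a costimulatory receptor, with 218 against 77.5 FPKM, Sh2d1a, which encodes the SLAM adaptor SAP, with 159 against 59.8 FPKM, and Myb, a factor needed early in iNKT development, with 56.6 against 20.9 FPKM. Plac8 was the lower one, at 60.1 FPKM in KO iNKT and 146 in KO CD44hi, with 155 and 42.0 FPKM in WT iNKT and WT CD44hi. The part of other cell types in the Plac8 value of KO CD44hi was not tested. Of 8 T cell receptor segments of iNKT cells that were looked for, 0 were among the gene symbols. The share of tetramer-binding cells in KO CD44hi and its part in these values was therefore not tested.

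**Figure D4:**
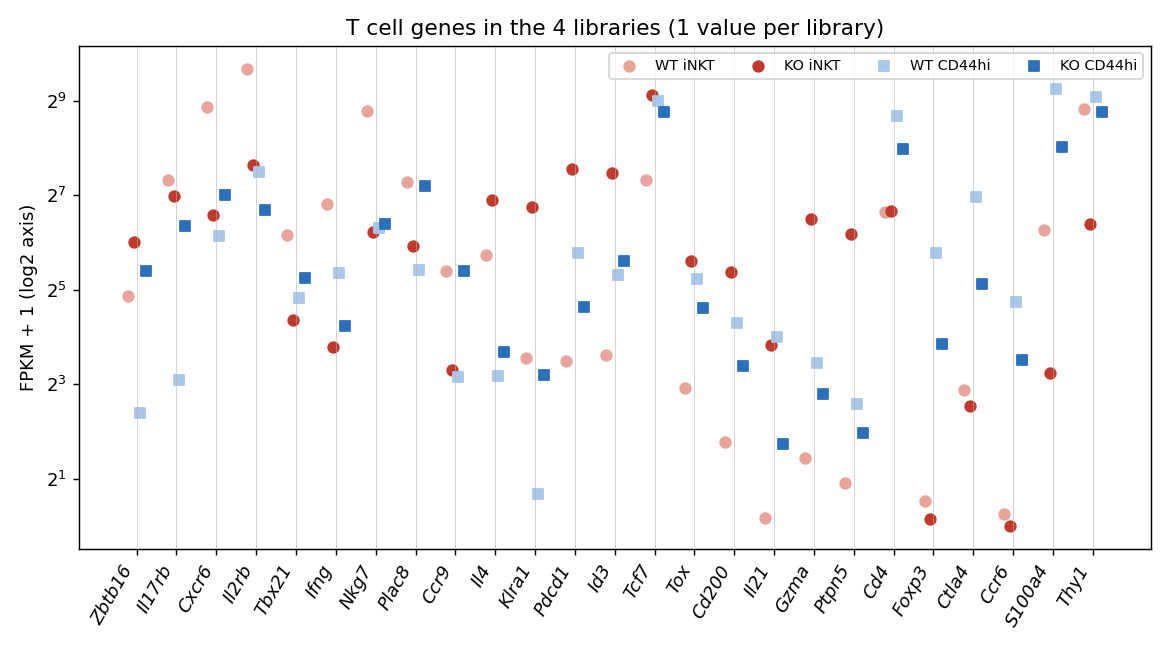
FPKM + 1 of 25 T cell genes is shown on a log2 axis, with circles for the iNKT libraries, squares for the CD44hi libraries, pale symbols for WT and dark ones for KO, 1 value per library. For Zbtb16 and Il17rb the dark square lies near the circles, for Cxcr6 and Il2rb the dark circle lies near the squares, and for Pdcd1, Gzma and Ptpn5 the dark circle is the highest and the pale circle the lowest.

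Among the T cell lists, NK cell receptors had the widest WT median, and 19 of 25 entered. In WT 14 were higher in iNKT and 4 lower, and in KO it was 4 and 4, with medians of 2.25 and 0.21. The 4 higher members were the Ly49 genes Klra1, Klra3 and Klra9 and the NKR-P1 gene Klrb1a, all also higher in WT iNKT. Klra1 was at 107 FPKM in KO iNKT and 8.16 in KO CD44hi, beside 10.7 and 0.610 FPKM in the WT pair, a KO ratio of 13.1 (11.1 to 15.4). Klrb1a had a KO ratio of 10.6 (7.61 to 15.3), with 29.9 against 2.81 FPKM. Ly49 genes are near copies of each other, so how their fragments were split between them is uncertain. Klrd1, encoding CD94, was at 182 FPKM in WT iNKT and 23.9 in WT CD44hi but at 56.5 and 45.3 FPKM in the KO pair, and Klrk1, encoding NKG2D, at 22.3 and 19.1 FPKM in the KO pair. The 4 lower members were Tyrobp, Fcer1g, Fcgr3 and Cd244. Tyrobp and Fcer1g are adaptors and Fcgr3 a receptor that myeloid cells also carry, and the myeloid markers given above were higher in KO CD44hi too. The part of myeloid cells in these genes was not tested.

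Type 1 genes as a list lost their WT direction. Of 20, 19 entered; 10 were higher and 3 lower in WT iNKT, while 0 were higher and 4 lower in KO iNKT, and the median went from 1.34 to -0.63. Tbx21, encoding the type 1 regulator T-bet, was at 19.5 FPKM in KO iNKT and 37.3 in KO CD44hi, beside 70.4 and 27.3 FPKM in the WT pair. KO iNKT was the lowest of the 4 libraries, and KO CD44hi exceeded it 1.91 times (1.68 to 2.19). Ifng was at 12.9 and 17.9 FPKM in the KO pair and 112 and 40.0 FPKM in the WT pair, and Nkg7, a granule membrane protein, at 73.5 and 82.3 FPKM in the KO pair and 437 and 78.7 FPKM in the WT pair. For both genes WT iNKT was far above the other libraries and the KO pair was within 2-fold. Stat4, which relays IL-12 signals, was at 9.03 and 33.5 FPKM in the KO pair and 47.3 and 57.0 FPKM in the WT pair, 2-fold lower in KO iNKT but not in WT iNKT. Runx3, a regulator of cytotoxic and type 1 genes, was at 10.7 against 31.3 FPKM in the KO pair. The other lower genes were the chemokines Ccl3 and Ccl4, at 0.611 and 0.393 FPKM in KO iNKT, with KO differences of -3.53 and -2.99. Both kept their WT direction, with WT differences of -3.07 and -2.46. Markers of other cell types were higher in KO CD44hi as well, and the part of such cells in Ccl3 and Ccl4 was not tested.

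Of 16 type 2 genes 7 entered, and Il4 was the 1 called. Gata3, the type 2 regulator, was at 31.1 FPKM in KO iNKT and 25.3 in KO CD44hi, a ratio of 1.23 (0.947 to 1.57). Of 20 type 17 genes 10 entered, with 7 lower and 1 higher in KO iNKT, and a median of -1.28 beside -1.19 in WT. Ccr6, a chemokine receptor of type 17 cells, was listed at 0 in KO iNKT against 10.5 FPKM in KO CD44hi. Tmem176a and Tmem176b, a neighbouring pair of membrane proteins seen in type 17 and in dendritic cells, were at 2.66 and 1.87 FPKM in KO iNKT and at 45.0 and 75.5 FPKM in KO CD44hi. The higher member was Nrp1, a semaphorin receptor of recently formed iNKT cells and regulatory T cells, at 37.6 against 7.41 FPKM. In WT it had been lower in iNKT, at 8.84 against 22 FPKM.

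Granule genes split by gene. Of 14, 9 entered and Gzma alone was called. Ctsw, encoding cathepsin W, was at 164 FPKM in KO iNKT and 154 in KO CD44hi, beside 279 and 58.6 FPKM in the WT pair, so the gap of the WT pair was closed in the KO pair. Serpinb6b, an inhibitor of granule proteases, was at 27.4 and 22.1 FPKM in the KO pair and 71.4 and 16.1 FPKM in the WT pair, within 2-fold in the KO pair alone.

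Follicular helper T cell (Tfh) genes had medians of opposite sign in the WT and the KO pair. Of 20, 17 entered, with 2 higher and 10 lower in WT iNKT, and 7 higher and 2 lower in KO iNKT. The median was -1.93 in WT and 0.85 in KO, and the KO median was 0.34 with no minimum on FPKM. The 7 were Pdcd1, Il4, Icos, Sh2d1a, Il21, Cd200 and Angptl2. Il21, the cytokine by which Tfh cells help B cells, was at 13.3 FPKM in KO iNKT and 2.34 in KO CD44hi, beside 0.135 and 15 FPKM in the WT pair. Cd200, a surface ligand, was at 40.8 and 9.55 FPKM in the KO pair and 2.44 and 18.8 FPKM in the WT pair, and Angptl2, a secreted angiopoietin-like protein, at 21.6 and 2.68 FPKM in the KO pair and 0.0597 and 27.7 FPKM in the WT pair. For these 3 genes WT iNKT was the lowest library, and KO CD44hi lay below WT CD44hi. The central Tfh regulator and its homing receptor were not higher: Bcl6 was at 10.8 FPKM in KO iNKT against 14.5 in KO CD44hi, and Cxcr5 at 18.8 against 36.5 FPKM. Cxcr5 had been at 0.963 and 75.9 FPKM in WT iNKT and WT CD44hi, so its WT difference of -5.29 shrank to -0.92. Tox2, an HMG-box factor of Tfh cells, went from -4.46 to 0.46, with 25.6 FPKM in KO iNKT and 18.3 in KO CD44hi. Tnfsf8, encoding CD30 ligand, and Pou2af1, a coactivator of B cells and Tfh cells, were lower in KO iNKT, at 2.21 against 17.5 FPKM and 4.09 against 10.7 FPKM. B cell markers were also higher in KO CD44hi, and their part in Pou2af1 was not tested.

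**Figure D5:**
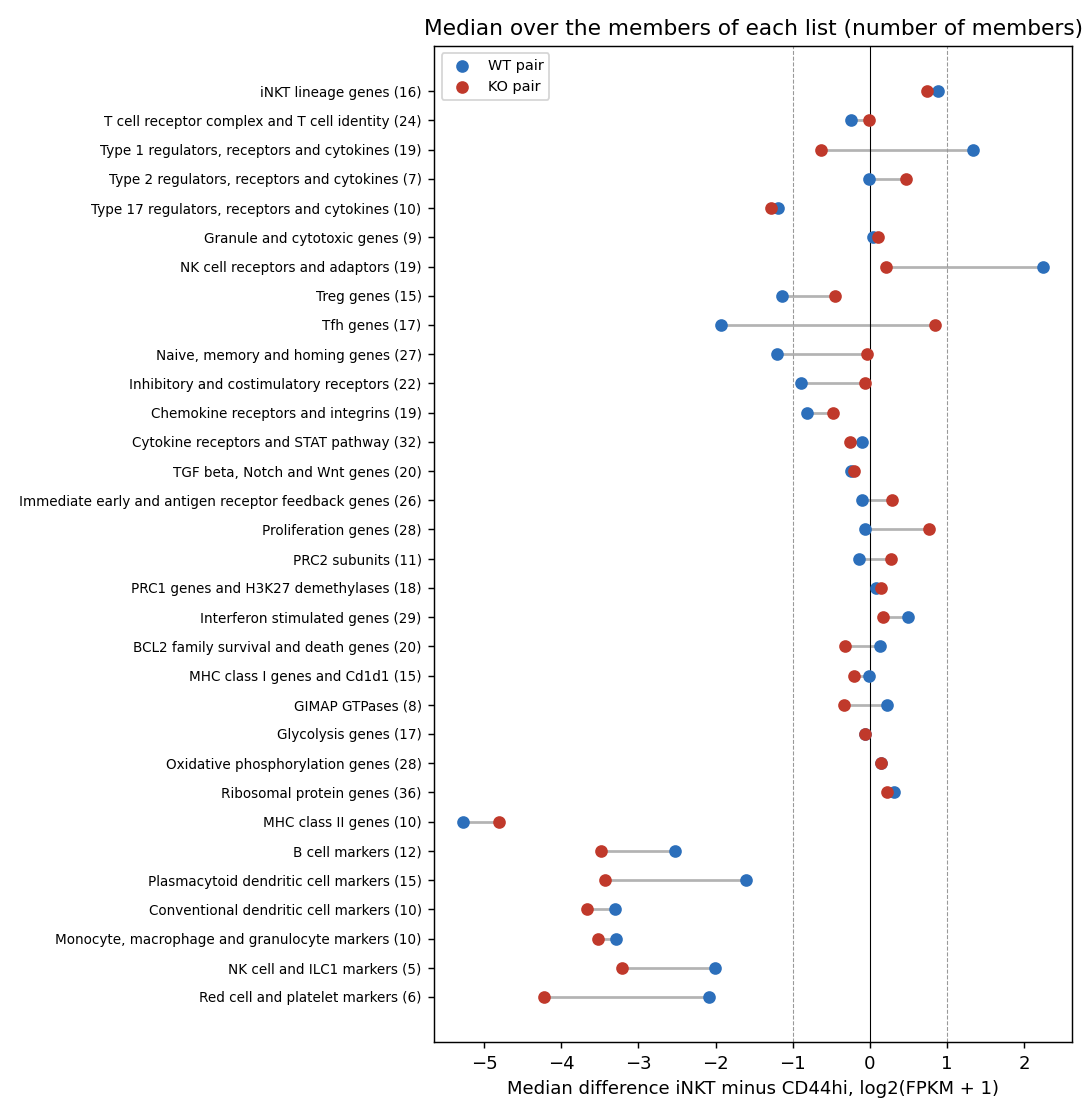
Points give the median difference (iNKT minus CD44hi, log2(FPKM + 1)) of gene lists in the WT pair (blue) and in the KO pair (red). Each list has at least 4 genes at 5 FPKM or more in KO iNKT or KO CD44hi, and both medians cover these genes. Brackets give the number of these genes, and dashed lines mark 2-fold. Type 1 and NK receptor genes lie right of 0 in WT and near or left of 0 in KO. Tfh genes lie on opposite sides, and the 7 marker lists of other cells shown lie left of -1 in both. The KO median of NK cell and ILC1 markers, -3.21 over 5 genes, was -0.54 with no minimum on FPKM.

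Regulatory T cell (Treg) genes were split in the KO pair, with Foxp3 itself on the CD44hi side. Of 22, 15 entered, with 3 higher and 5 lower in KO iNKT and 0 higher and 8 lower in WT iNKT. In WT CD44hi 20 genes of the list reached 5 FPKM, so the WT counts over the 15 leave some of these out. Foxp3, which defines Treg cells, was at 0.115 FPKM in KO iNKT and 13.4 in KO CD44hi, beside 0.446 and 53.8 FPKM in the WT pair. Both iNKT libraries were below 1 FPKM, and KO CD44hi was below WT CD44hi. Ctla4, an inhibitory receptor, was at 4.87 against 33.8 FPKM in the KO pair, a ratio of 0.144 (0.0820 to 0.229), and Tigit, another inhibitory receptor, at 1.42 against 20.5 FPKM. Tnfrsf4, encoding OX40, was at 6.03 against 24.1 FPKM. The members higher in KO iNKT were Nrp1, Ikzf2, which encodes Helios, at 53.3 against 24.4 FPKM, and Tnfrsf9, which encodes 4-1BB, at 32.0 against 13.5 FPKM.

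Inhibitory and costimulatory receptors went both ways. All 22 entered, 6 higher and 5 lower, where WT iNKT had 2 higher and 10 lower. Besides Pdcd1, Cd200, Icos and Tnfrsf9, the higher ones were Cd28, the main costimulatory receptor of T cells, at 137 against 57.1 FPKM, and Nr4a2, a nuclear receptor induced by antigen receptor signals, at 17 against 1.23 FPKM. Its relatives differed less: Nr4a1 was at 68.3 against 53.4 FPKM and Nr4a3 at 3.84 against 6.66 FPKM. Lag3, an inhibitory receptor that binds MHC class II, was at 0.538 FPKM in WT iNKT and 38.7 in WT CD44hi, and at 11.3 and 22.4 FPKM in the KO pair. Havcr2, encoding TIM-3 and also known from dendritic cells, was at 0.142 against 13.8 FPKM in the KO pair.

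Naive, memory and homing genes had a WT median of -1.21 and a KO median of -0.04 over 27 of 29 genes, with 4 higher and 15 lower in WT iNKT and 2 higher and 5 lower in KO iNKT. Id3, an E protein inhibitor that marks less differentiated T cells, was at 175 FPKM in KO iNKT and 47.9 in KO CD44hi, beside 11.4 and 38.7 FPKM in the WT pair. WT iNKT was the lowest and KO iNKT the highest library, and the KO ratio was 3.65 (3.29 to 4.05). Tcf7, encoding TCF1, was at 558 and 429 FPKM in the KO pair and 159 and 505 FPKM in the WT pair, so a WT difference of -1.66 became 0.38. Lef1, its relative, was at 74.5 against 40.4 FPKM in the KO pair. Igfbp4 was the other higher gene. Actn1, an actin crosslinker of naive T cells, and Il6ra, the IL-6 receptor, were lower, at 18.7 against 42.9 FPKM and 8.90 against 30.9 FPKM. S100a4, a calcium-binding protein of effector-memory and myeloid cells, was at 8.50 FPKM in KO iNKT and 257 in KO CD44hi, beside 76.1 and 601 FPKM in the WT pair. Its KO difference was -4.77, and KO CD44hi exceeded KO iNKT 30.3 times (19.3 to 51.7). Anxa1, an anti-inflammatory phospholipid-binding protein, was at 0.752 against 5.37 FPKM in the KO pair, where WT iNKT had been higher, at 15 against 5.68 FPKM; its KO difference of -1.86 was -0.85 at a pseudocount of 5.

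Of the 24 genes of the T cell receptor complex and T cell identity, 19 were within 2-fold. Cd4 was lower in iNKT of both genotypes, and the CD44hi gate alone required CD4. Thy1, the surface antigen Thy-1, was at 82.7 FPKM in KO iNKT and 432 in KO CD44hi, beside 449 and 537 FPKM in the WT pair. KO iNKT was the low library of the 4, and KO CD44hi exceeded it 5.23 times (4.60 to 5.97). Cd2, an adhesion receptor, was at 63.3 against 217 FPKM and Ubash3a, which dampens T cell receptor signals, at 4.37 against 18.4 FPKM. Cd28 was the 1 higher gene.

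Chemokine receptors and integrins included 2 lower genes among 19 of 27 that entered, beside 9 lower and 4 higher in WT. They were Ccr6 and Ccr9, a gut-homing receptor. Ccr9 was at 8.81 FPKM in KO iNKT and 41.0 in KO CD44hi, beside 41.0 and 7.91 FPKM in the WT pair, an exchange of the levels between the pairs. Plasmacytoid dendritic cells also carry Ccr9, and their marker Siglech was at 11.1 FPKM in WT CD44hi and 75.7 FPKM in KO CD44hi; its part in the Ccr9 value was not tested. Itga4, an integrin chain for tissue entry, was at 49.4 and 73.0 FPKM in the KO pair and 10.9 and 122 FPKM in the WT pair, so a WT difference of -3.37 became -0.55.

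Cytokine receptors and STAT genes gave 6 lower and 0 higher members among 32 of 34 that entered. Besides Stat4 and Il6ra these were Il6st, the shared signalling chain of the IL-6 family, at 11.4 against 28.2 FPKM, Ifngr1, a chain of the interferon gamma receptor, at 23.3 against 66.2 FPKM, Il2ra at 5.05 against 11.1 FPKM, and Il10ra at 1.14 against 43.9 FPKM. Ifngr1 had been at 91.8 and 82.6 FPKM in WT iNKT and WT CD44hi, so KO iNKT was the low library. Il10ra is also carried by myeloid cells, whose markers were higher in KO CD44hi, and the part of these cells in the Il10ra value was not tested.

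Of 31 proliferation genes 28 entered, and all 28 had a higher level in KO iNKT than in KO CD44hi. All 28 were at 5 FPKM or more in KO iNKT, but 22 genes of the list were in KO CD44hi. A gene that entered only through KO iNKT had to be higher there. Of the 28, 7 were at least 2-fold higher, with a median of 0.76. In the WT pair the median was -0.06, with 0 higher and 2 lower. Uhrf1, which maintains DNA methylation in S phase, was at 25.6 FPKM in KO iNKT and 9.85 in KO CD44hi, beside 6.14 and 9.49 FPKM in the WT pair, and its KO ratio was 2.60 (2.31 to 2.92). KO iNKT was the high library and the others lay close together. The other 6 were the cyclins Ccnb1 and Ccne1, the ribonucleotide reductase chain Rrm2, the topoisomerase Top2a, the tubulin regulator Stmn1 and the replicative helicase chain Mcm6, with KO differences from 1.05 to 1.33. At a pseudocount of 5 Ccnb1 (0.73), Ccne1 (0.91) and Top2a (0.98) were under 2-fold. Mki67, encoding the proliferation marker Ki-67, was at 17.7 against 14.8 FPKM.

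Of 12 PRC2 genes 11 entered, and 0 were called in the KO pair, where 9.38% of all 8750 genes were called. Ezh1 was at 16.6 FPKM in KO iNKT and 21.5 in KO CD44hi, Suz12, a core PRC2 subunit, at 40.7 against 23.2 FPKM, and Phf1, an accessory subunit, at 38.6 against 77.2 FPKM. The Phf1 difference was -0.98 in log2(FPKM + 1), just short of the call. Of 19 PRC1 and H3K27 demethylase genes 18 entered and 1 was called, Pcgf1, a Polycomb ring finger subunit, at 2.14 against 9.14 FPKM. The Pcgf1 difference was -1.69, and it was -0.99, short of 2-fold, at a pseudocount of 5.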

How the data were processed

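RNA of 4 sorted populations was measured with the TruSeq RNA kit v2, 1 library per group. The authors deposited FPKM per gene symbol and library, per the file headers. Tools and build, without their roles, are TopHat 1.3.2, Cufflinks 2.0.2, Bowtie2 2.0.0 and mm10 per the submitters' processing notes; annotation, filters and strand setting are not given in the sources used here. From these values 26 symbols turned into dates (CD44hi files only) and 773 small RNA symbols were left out, and rows of 240 repeated symbols were summed, leaving 22485. Differences are log2(FPKM + 1), a scale that understates low genes, called at 2-fold. Depth came from the steps between low FPKM values of transcripts over 1500 bases (GENCODE M21), so fragment numbers and intervals are estimates. The members and lists were chosen with earlier results of these data known. Genes were named as the 15 largest and 15 smallest differences, the 12 smallest of T cell lists (without genes that are also in marker lists of other cells), up to 8 opposed genes, the 8 largest shifts each way between WT and KO, up to 5 per list, and a set of regulators; unnamed genes, receptor segments and repeated symbols were left out of the ranked parts, and a few list members were added after their values were seen. Pseudocount, FPKM minimum, fold and scaling were varied. Python 3.11.15, numpy 2.4.6, pandas 2.3.3 and scipy 1.17.1 were used; scripts were tested on simulated data. A few genes of the named set are not reported here.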

Additional observations from a re-analysis of the deposited data

Results flagged for a closer look

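Differences between the cell types of at least 2-fold with opposite signs in the WT and the KO pair were given a closer look for 15 named genes; with 1 library per group, whether the pairs differed was not tested. All values are iNKT minus CD44hi in log2(FPKM + 1). Higher in KO iNKT and lower in WT iNKT were Ptpn5 (4.20 in KO, -1.67 in WT), Gzma (3.70, -2.01), Pdcd1 (2.91, -2.28), Angptl2 (2.62, -4.76) and Rln3, which encodes the hormone relaxin-3 (2.43, -2.61). So were Nrp1 (2.20, -1.23), Il21 (2.10, -3.82), Cd200 (1.99, -2.53), Sccpdh (1.99, -2.54) and Id3 (1.85, -1.68). For these 10 genes WT iNKT had the lowest level of the 4 libraries or, for Nrp1, was above KO CD44hi alone.

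Lower in KO iNKT and higher in WT iNKT were Ccr9 (-2.10 in KO, 2.24 in WT), Anxa1 (-1.86, 1.25), Ly6g5b (-1.33, 2.49), Plac8 (-1.27, 1.86) and Snai3 (-1.17, 2.02). Each of these 5 had a lower level in KO iNKT than in WT iNKT. At a pseudocount of 5 the KO differences of Anxa1 (-0.85) and Snai3 (-0.65) were under 2-fold.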

How the results depend on the processing

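No paired analysis was possible because each group had 1 library, and no replicate could be left out. The main counts were 245 higher and 576 lower genes. A pseudocount of 5 gave 121 higher genes. An FPKM minimum of 1, or no minimum, gave 1040 lower genes. A limit of 1.5-fold gave 873 higher and 1124 lower, and 4-fold gave 44 and 297. With 5 FPKM required in KO iNKT, added after seeing the data, 245 were higher and 176 lower. Of WT differences 44.0% were also in KO, and of KO differences 57.0% were also in WT; with 5 FPKM in an iNKT library, also added later, these were 22.6% and 31.9%. The other alternatives kept these counts within 1.5 times, and no named gene called in the main setting changed sign under the other pseudocounts or scaling. At a pseudocount of 5, however, 11 of 192 named genes lost their 2-fold call: Anxa1 (-0.85), Snai3 (-0.65), Bmf (-0.75), Hes1 (-0.78), Smad7 (-0.90), Pcgf1 (-0.99), Ccnb1 (0.73), Ccne1 (0.91), Top2a (0.98), Oas3 (0.88) and Oasl1 (0.73). With no FPKM minimum 5 of 32 list medians moved by at least 0.5. Among them were Tfh genes (0.34) and NK cell and ILC1 markers, from -3.21 to -0.54. Medians of other-cell markers moved with the pseudocount, from -5.98 to -3.40 for MHC class II genes. Depth limits genes near 0 in the iNKT libraries, where 1 fragment weighs most.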

Other observations

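Lists of general cell functions differed little between KO iNKT and KO CD44hi. Of 28 oxidative phosphorylation genes 0 were called, with a median of 0.15, and of 15 MHC class I genes 0, with a median of -0.20. Ribosomal protein genes had a median of 0.22, with Rpl30 (13.7 against 37.8 FPKM) and Rps27 (9.98 against 34.9 FPKM) lower among 36; genes of this family have many near copies in the genome, so their split of fragments is uncertain. Of 17 glycolysis genes that entered, Pgk1 was higher, at 119.9 against 50.9 FPKM, and Eno1 lower, at 1.04 against 29.8 FPKM, with near copies as a limit for Eno1 too.

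Among 29 interferon stimulated genes that entered, Oas3 (26.9 against 12.4 FPKM) and Oasl1 (12.3 against 5.45 FPKM) were higher and Bst2 (78.7 against 195 FPKM) lower in KO iNKT, the first 2 under 2-fold at a pseudocount of 5; Bst2 is also a marker of plasmacytoid dendritic cells. Of 20 BCL2 family and death genes 3 were lower. They were Pmaip1, encoding the death inducer NOXA, at 10.2 against 42.8 FPKM, Bmf, a BH3-only gene (under 2-fold at a pseudocount of 5), at 1.01 against 5.14 FPKM, and Traf1, a signalling adaptor, at 32.4 against 77.4 FPKM. Of 8 GIMAP genes, which support lymphocyte survival, Gimap7 was lower, at 50.8 against 132 FPKM. Immediate early genes were mixed: of 26, Nr4a2, Fosb (54.4 against 22 FPKM) and Dusp1 (329.6 against 132 FPKM) were higher, and Jun (18.0 against 52.1 FPKM) and Cd83 (6.09 against 30.1 FPKM) lower. The part of other cell types in the Cd83 value of KO CD44hi was not tested. Of 20 TGF beta, Notch and Wnt genes 3 were lower, Smad7, Hes1 and the Notch modulator Dtx1, the last at 29.6 against 115 FPKM. Smad7 and Hes1 were under 2-fold at a pseudocount of 5.

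Ndufs5, a subunit of respiratory complex I that every cell uses, was at 0.00789 FPKM in KO iNKT and 42.1 in KO CD44hi, beside 22.2 and 31.6 FPKM in WT iNKT and WT CD44hi. The KO iNKT value lies far below that of 1 fragment. Among the 748 of 821 called genes with a known length, 12 had a value above 0 but under 0.5 of a fragment in 1 library, and their differences are uncertain.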
